A study of Mus musculus with 9 samples.

Results

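The nuclear genes for mitochondrial ribosomal proteins were followed across mouse hearts in 3 groups of 3 RNA-seq libraries, labelled control, DOX and TPTN. The gene table was searched for symbols of the form Mrpl or Mrps with a number and for the annotation as protein-coding, which gave 78 of its 29237 genes. Of these, 51 encode proteins of the large subunit, 26 encode proteins of the small subunit, and Mrps36 carries the family name although its protein belongs to the 2-oxoglutarate dehydrogenase complex. Mrps18a and Mrps30 were counted with the large subunit, where their proteins sit. All 78 passed the expression minimum of a mean of 0.5 FPKM (fragments counted on a gene, scaled for transcript length and for all mapped fragments), so none was lost to the filter. A further 5 genes whose symbols mark them as pseudogenes of this family, with means of 0.966 to 2.31 FPKM, were left out. All mice were wild-type C57BL/6 animals of 8 to 12 weeks. The title ties the study to TPTN and to dilated cardiomyopathy caused by doxorubicin, a chemotherapy drug of the anthracycline class with known toxicity to heart muscle, and the design text calls the groups normal, DOX model and TPTN treated. The labels spell out neither TPTN nor any dose or time, nor do they state if doxorubicin was also given to the TPTN mice. Nothing beyond the replicate number says that the libraries of a group came from separate animals, so p-values measure the spread between these libraries, which may be technical.

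The mitochondrial ribosome translates the few messenger RNAs of the mitochondrial genome, all of which encode subunits of the respiratory chain and the ATP synthase. Its ribosomal RNAs are made inside the organelle, whereas all of its proteins are encoded in the nucleus, made on cytosolic ribosomes and imported. Some of these proteins descend from bacterial ribosomal proteins and others occur only in mitochondria. Heart muscle is rich in mitochondria, and inherited defects of several of these proteins cause cardiomyopathy in people.

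RefSeq promoter windows (GRCm38.p6, 250 bases before to 50 bases after the annotated start) were found for 69 of the 78 genes. They were searched on both strands for motifs of factors known to act at genes for mitochondrial proteins and at housekeeping promoters. The ETS core CCGGAAG was in 26 of the 69 windows (37.7%, against 9.93% of the 27025 genes with a window), and its longer form CCGGAAGT was in 12 (17.4% against 4.31%). The NRF1 motif was in 13 (18.8% against 5.19%), and its shorter form GCATGCGC, which can overlap it, was in 8 (11.6% against 3.05%). The YY1 motif AANATGGCG was in 11 (15.9% against 2.76%), and the CREB motif TGACGTCA was in 2 (2.90% against 2.03%). Counting NRF1, ETS, YY1 and CREB as 4 families, 24 windows held none, 34 held 1 and 11 held 2. The 27025 genes were not filtered for expression in heart, whereas all members passed the expression minimum. These shares are therefore not matched for expression. A match is a run of letters and not a measured binding site.

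Windows are printed for the 4 genes with the smallest p in the comparison of DOX with control, and for Mrps21 and Mrps12 as an abundant gene with 2 motif families and a gene that shares its promoter region with a neighbour. Each runs 5′ to 3′ on the gene's strand, with motif letters in capitals. The windows are chr4:155802628-155802927 (plus strand) for Mrpl20, chr7:142532782-142533081 (plus) for Mrpl23, chr17:46110754-46111053 (plus) for Mrps18a, chr11:5707652-5707951 (minus) for Mrps24, chr3:95871465-95871764 (minus) for Mrps21 and chr7:28741772-28742071 (minus) for Mrps12.
Mrpl20: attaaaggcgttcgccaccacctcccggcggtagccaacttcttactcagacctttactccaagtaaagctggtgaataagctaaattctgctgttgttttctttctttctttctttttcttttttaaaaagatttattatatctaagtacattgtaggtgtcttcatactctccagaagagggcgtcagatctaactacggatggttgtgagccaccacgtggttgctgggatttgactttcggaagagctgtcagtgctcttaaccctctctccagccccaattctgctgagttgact
Mrpl23: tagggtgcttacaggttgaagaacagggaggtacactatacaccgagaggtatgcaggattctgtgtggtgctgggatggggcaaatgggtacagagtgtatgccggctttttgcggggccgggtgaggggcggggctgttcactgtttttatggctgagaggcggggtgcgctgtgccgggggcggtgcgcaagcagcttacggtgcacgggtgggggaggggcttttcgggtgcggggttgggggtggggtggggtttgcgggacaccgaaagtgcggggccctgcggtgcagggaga
Mrps18a: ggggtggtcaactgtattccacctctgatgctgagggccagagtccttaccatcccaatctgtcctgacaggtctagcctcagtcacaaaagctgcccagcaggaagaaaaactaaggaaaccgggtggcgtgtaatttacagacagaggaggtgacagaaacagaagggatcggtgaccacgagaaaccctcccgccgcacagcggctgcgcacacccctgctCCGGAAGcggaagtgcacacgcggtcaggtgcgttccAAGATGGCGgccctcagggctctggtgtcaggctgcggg
Mrps24: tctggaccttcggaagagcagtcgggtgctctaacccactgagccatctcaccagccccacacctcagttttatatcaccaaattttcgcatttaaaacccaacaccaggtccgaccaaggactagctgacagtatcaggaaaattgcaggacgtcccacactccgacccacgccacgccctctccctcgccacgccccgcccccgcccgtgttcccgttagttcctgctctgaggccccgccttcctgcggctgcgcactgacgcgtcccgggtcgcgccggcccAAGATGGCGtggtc
Mrps21: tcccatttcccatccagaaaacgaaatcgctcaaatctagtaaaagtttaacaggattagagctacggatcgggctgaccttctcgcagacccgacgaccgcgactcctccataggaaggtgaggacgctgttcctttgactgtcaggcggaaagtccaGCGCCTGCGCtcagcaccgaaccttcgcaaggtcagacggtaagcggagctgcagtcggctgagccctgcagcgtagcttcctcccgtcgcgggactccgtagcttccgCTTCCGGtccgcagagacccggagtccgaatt
Mrps12: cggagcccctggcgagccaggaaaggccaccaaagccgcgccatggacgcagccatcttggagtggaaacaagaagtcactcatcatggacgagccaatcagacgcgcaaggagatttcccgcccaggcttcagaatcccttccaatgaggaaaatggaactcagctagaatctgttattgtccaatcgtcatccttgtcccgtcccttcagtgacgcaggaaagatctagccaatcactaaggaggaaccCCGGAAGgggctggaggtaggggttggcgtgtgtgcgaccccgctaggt
The Mrpl20 and Mrpl23 windows held none of the letters searched. Mrps18a held an ETS core that begins 26 bases before the start and a YY1 motif that begins at base 12 of the transcript. Mrps24 held a YY1 motif at base 37, Mrps21 an NRF1 motif 91 bases before the start and an ETS core at base 19 on the other strand, and Mrps12 an ETS core at base 2. The RefSeq start lies 7979 bases inside the GENCODE M21 gene for Mrps24 and 346 bases inside it for Mrpl23, and within 18 bases of the GENCODE start for the other 4.

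The mitoribosomal genes were well expressed. Their median level over all libraries was 13.5 FPKM, against 3.07 FPKM over the 12500 genes tested. Mrpl12, whose protein forms the mobile stalk that contacts translation factors and also binds the mitochondrial RNA polymerase, was highest at 73.9 FPKM and ranked 371 among the genes tested. Mrps23 (64.5 FPKM) and Mrps21 (63.4 FPKM), both of the small subunit, came next. The lowest was Mrps10 of the small subunit, the counterpart of bacterial S10, at 1.45 FPKM. In the large subunit the lowest were Mrpl32 and Mrpl17, both at 3.13 FPKM. The median was 14.4 FPKM in the large subunit and 8.94 FPKM in the small subunit. Transcript levels thus spanned from 1.45 to 64.5 FPKM within the small subunit, although its proteins are built into the same particle. The median coefficient of variation over the 9 libraries was 9.19%, against 12.6% for all genes tested, which were not matched to the members for level. Among the members the coefficient ranged from 3.49% for Mrpl47 to 18.5% for Mrpl54.

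**Figure D1:**
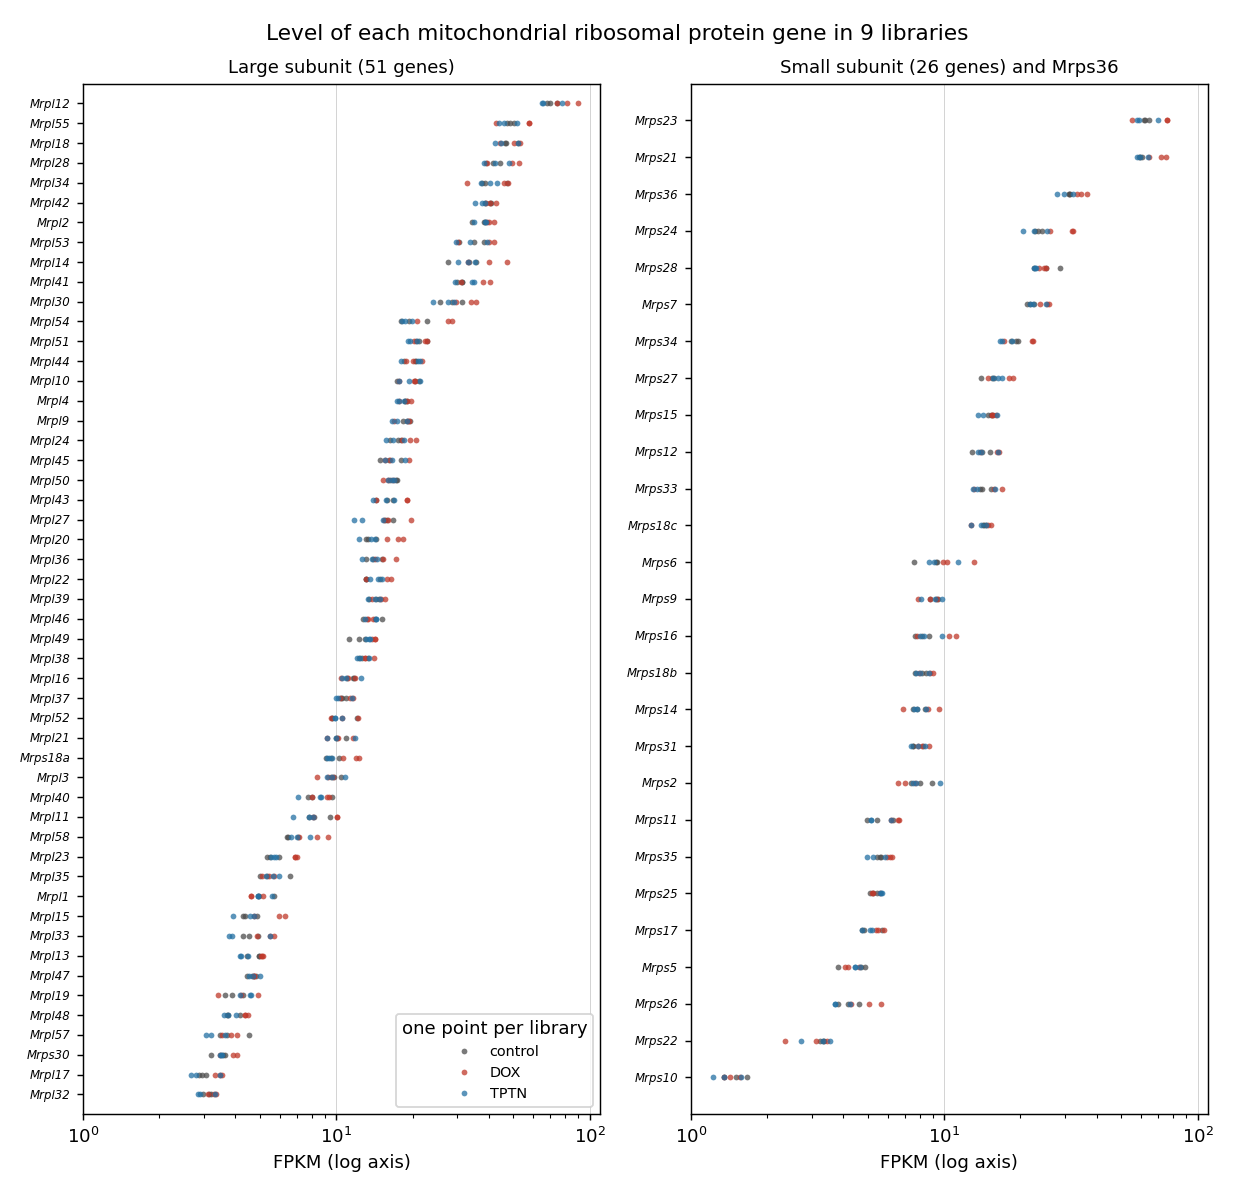
FPKM (log axis) of each of the 78 genes in each library, with the large subunit on the left and the small subunit and Mrps36 on the right, ordered by mean; each point is 1 library, coloured by group. Means over the 9 libraries run from 1.45 FPKM for Mrps10 to 73.9 FPKM for Mrpl12, and single libraries from 1.22 FPKM for Mrps10 to 90.3 FPKM for Mrpl12.

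Cardiomyocyte markers summed to 9108 to 10179 FPKM in control, 10238 to 11725 FPKM in DOX and 10656 to 10944 FPKM in TPTN. As deposited, every DOX and TPTN library thus lay above every control library in this sum. In DOX against control, limma called 2 of the 6 markers higher, Myl2 and Tnni3, and 1 lower, Ryr2 (adjusted p under 0.05). Of all genes tested, 2.23% were called higher and 0.4% lower. These sums and calls are on FPKM as deposited, and the markers under other scalings are not given here. Adipocyte markers summed to at most 1.61 FPKM. DOX replicate 1 stood apart with 2444 FPKM of atrial myocyte markers (Nppa, Myl7, Myl4 and Sln), against 51.4 to 289 FPKM in the others. It also had the lowest sum of erythroid markers, 331 FPKM against 396 to 971 FPKM. Control replicate 3 and TPTN replicate 1 held 644 and 930 FPKM of RNAs annotated as small nuclear, nucleolar, Cajal body or miscellaneous, against 126 to 435 FPKM in the rest. Transcripts of the mitochondrial genome made up 49.8 to 50.9% of the FPKM sum in control, 44.7 to 46.2% in DOX and 48.1 to 48.7% in TPTN. Because FPKM is a share, both leave less or more of the sum to every other nuclear gene. Values of the family under other scalings are given beside its results for that reason. In RNA from whole tissue, fewer cells of a type and less RNA per cell cannot be told apart.

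In DOX hearts against control hearts, no mitoribosomal gene passed the threshold of an adjusted p under 0.05, and most values were slightly higher in DOX as deposited, though not under quantile normalization or when scaled without mitochondrial genes and copies. By limma with Benjamini-Hochberg adjustment over the 12500 genes, 0 of the 78 were called higher (2.23% of all genes tested were) and 0 lower (0.4%). At an unadjusted p under 0.05, 16 were higher (20.5% of the 78, against 14.6% of all genes) and 0 lower (against 3.47%). In 16 genes every DOX library lay above every control library (17.7% of all genes), and in 0 every one lay below (5.1%). The log2 change of FPKM + 1 was above 0 in 61 of the 78 (62.8% of all genes), and its median was 0.079, beside 0.044 over all genes. Under quantile normalization the median was -0.0085. It was -0.066 when FPKM was scaled to the sum left after taking out mitochondrially encoded genes and the nuclear pseudogenes that copy them, so the direction of the family depends on the scaling.

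The summed FPKM of the large subunit was 935, 854 and 885 in the control libraries and 864, 1021 and 1018 in the DOX libraries. For the small subunit the sums were 387, 368 and 379 in control and 374, 436 and 439 in DOX. DOX replicates 2 and 3 lay above all control libraries in both sums, and DOX replicate 1 lay inside the control range. The ratio of the group means, DOX to control, was 1.09 for the large and 1.10 for the small subunit as deposited, and 0.967 and 0.980 when scaled without mitochondrial genes and copies. The large sum was 2.31 to 2.41 times the small sum in every library, so the sums of the subunits stayed in nearly the same proportion.

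**Figure D2:**
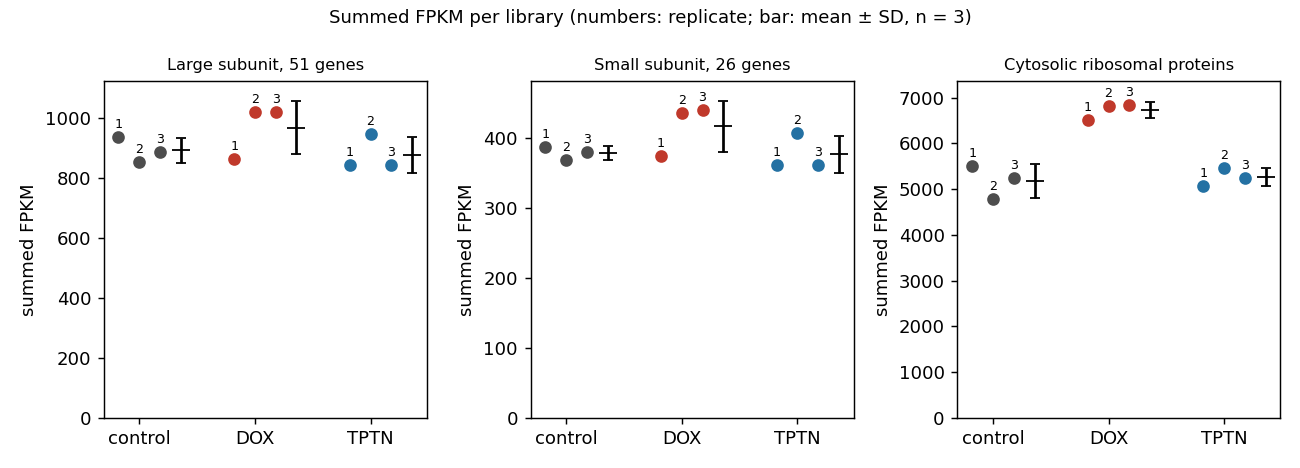
Summed FPKM per library for the 51 large subunit genes, the 26 small subunit genes and the cytosolic ribosomal protein genes; points are libraries labelled by replicate number, and the bar is the mean ± SD of 3 libraries. DOX replicate 1 lies within the control range in both mitoribosomal sums (864 and 374 FPKM) and above all control libraries in the cytosolic sum (6519 FPKM).

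Most of the DOX difference came from 2 of the 3 libraries. Against each gene's own mean over the 9 libraries, 70 of the 78 genes were above it in DOX replicate 2 and 68 in DOX replicate 3, but only 27 in DOX replicate 1. The median deviation was 0.12, 0.11 and -0.053 on the log2 scale in the same order. TPTN replicate 2 (57 above) and control replicate 1 (51 above) were also on the high side, and TPTN replicates 1 (12 above) and 3 (10 above) on the low side. The cytosolic ribosomal protein genes did not share the low value of DOX replicate 1. As deposited, their sums were 4783 to 5511 FPKM in control and 6519, 6814 and 6849 FPKM in DOX. Of 78 tested, 43 were called higher (2.23% of all genes were). Their values under other scalings are not given here. Without DOX replicate 1 the median change of the mitoribosomal genes was 0.15, beside 0.024 over all genes. In that setting 25 of 78 were higher at an unadjusted p under 0.05 (13.6% of all genes) and 3 were called higher (Mrpl20, Mrpl54 and Mrps24; 2.06% of all genes). Without DOX replicate 2 the median was 0.046, beside 0.045 over all genes, and without DOX replicate 3 it was 0.053, beside 0.063. The members thus lay above the median of all genes by 0.034 with all libraries, but by 0.00083 without DOX replicate 2, and they lay below it (a difference of -0.010) without DOX replicate 3. Atrial and erythroid markers differed in DOX replicate 1 as given above, and their part in its lower mitoribosomal values was not tested.

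Mrpl20, the counterpart of bacterial L20, which binds ribosomal RNA early in assembly of the large subunit, came closest to the threshold. The gene spans chr4:155802878-155809975 on the plus strand, and its levels were 14.3, 13.4 and 13.1 FPKM in control, 15.8, 18.3 and 17.6 FPKM in DOX and 12.3, 13.7 and 14.2 FPKM in TPTN. All DOX libraries lay above all others, and the control and TPTN ranges overlapped. Its log2 change in DOX against control was 0.32 (SE 0.077, adjusted p = 0.0559, limma), with means of 13.6 ± 0.630 and 17.2 ± 1.27 FPKM (SD, n = 3). It passed with a minimum mean of 1 FPKM (adjusted p = 0.0464) and without DOX replicate 1 (0.0439), and the adjusted p ranged up to 0.212 over the alternatives.

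The next genes by p were chosen after their values were seen, except Mrps18a. Mrpl23, the counterpart of the bacterial protein L23 beside the exit tunnel for the new chain, had 5.97, 5.33 and 5.50 FPKM in control, 6.98, 6.87 and 6.86 FPKM in DOX and 5.55, 5.66 and 5.78 FPKM in TPTN. Its DOX libraries were nearly equal to one another and lay above all 6 others. Its log2 change in DOX against control was 0.26 (SE 0.064, adjusted p = 0.0584, limma). Mrps24, the small subunit counterpart of bacterial S3 near the entry of the messenger RNA channel, had 23.5, 22.8 and 24.2 FPKM in control, 26.1, 32.1 and 32.3 FPKM in DOX and 20.4, 25.5 and 22.6 FPKM in TPTN. All DOX libraries were again the highest, and DOX replicate 1 lay just above the highest TPTN library. Its log2 change was 0.34 (SE 0.097, adjusted p = 0.0960, limma), or 0.44 (adjusted p = 0.0412) without DOX replicate 1. Mrps18a, 1 of 3 mammalian relatives of bacterial S18 and the one placed in the large subunit, had 9.09, 10.3 and 9.55 FPKM in control, 10.7, 11.97 and 12.3 FPKM in DOX and 9.202, 9.36 and 9.62 FPKM in TPTN. Its log2 change was 0.25 (SE 0.072, adjusted p = 0.0985, limma). Its relatives in the small subunit gave 0.070 for Mrps18b and -0.011 for Mrps18c. Mrpl54, also chosen after its values were seen, had 22.7, 18.1 and 19.4 FPKM in control and 20.9, 27.6 and 28.7 FPKM in DOX. Its DOX replicate 1 lay inside the control range, and its log2 change of 0.34 had an adjusted p of 0.165 by limma.

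**Figure D3:**
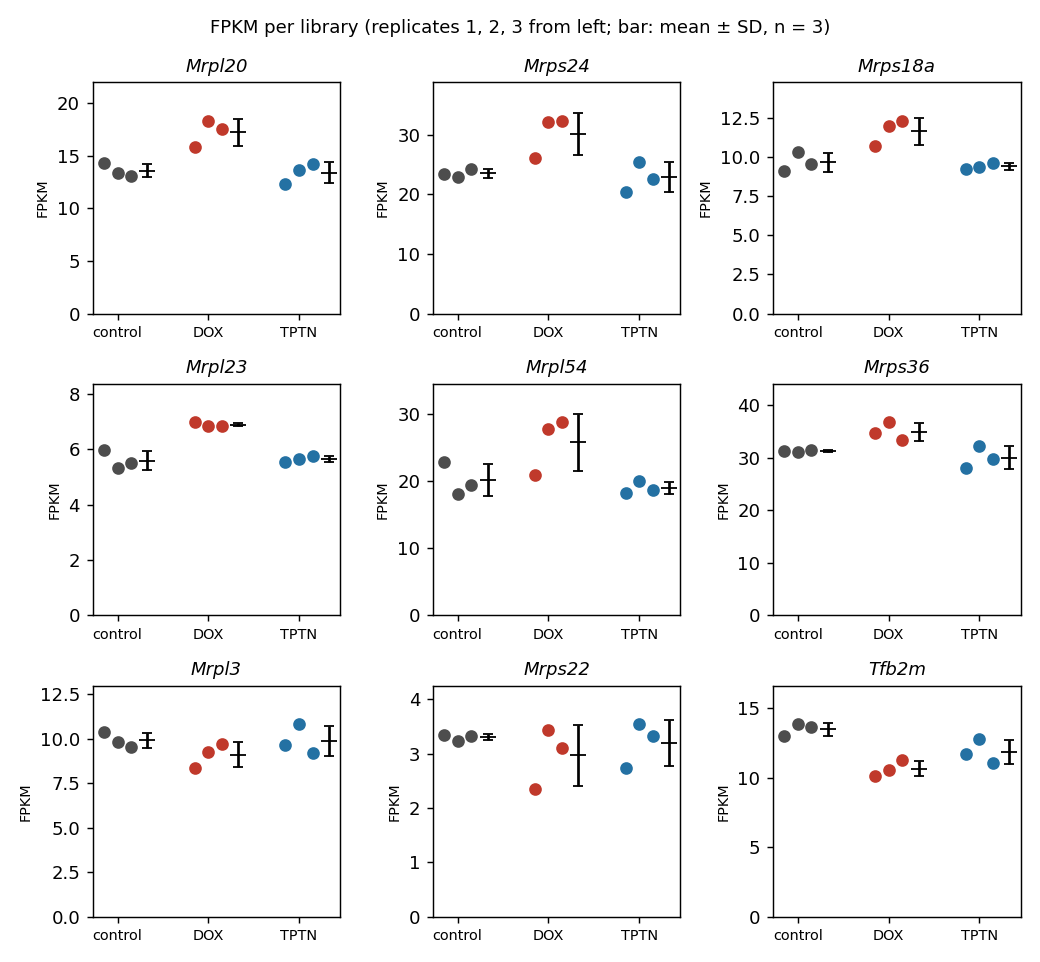
FPKM of 8 family members and of Tfb2m in each library, with replicates 1 to 3 from left to right in each group and the mean ± SD of 3 libraries as the bar; each axis starts at 0. For Mrpl20, Mrps24, Mrps18a and Mrpl23 all 3 DOX libraries lie above all control and TPTN libraries, while for Mrpl3 and Mrps22 DOX replicate 1 is the lowest of the 9.

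The 4 genes known from human cardiomyopathy gave small values with no call in any comparison. Mrpl3, of the large subunit near the peptidyl transferase centre, had 10.4, 9.81 and 9.54 FPKM in control, 8.37, 9.25 and 9.73 FPKM in DOX and 9.65, 10.8 and 9.21 FPKM in TPTN. The groups overlapped, and its log2 change in DOX against control was -0.11 (SE 0.079, adjusted p = 0.517, limma). Mrps22, specific to mitochondria, had 3.34, 3.24 and 3.33 FPKM in control and 2.35, 3.44 and 3.11 FPKM in DOX. Its DOX libraries spanned the control values on both sides, and its log2 change was -0.13 (SE 0.11, adjusted p = 0.598, limma). Mrpl44, which has a fold related to ribonuclease III, gave 0.023, and Mrps14, near the decoding site, gave 0.059. Mrpl3 and Mrps22 were among 7 members with a change below 0 in DOX against control under the main setting and all 21 alternatives, with Mrpl1, Mrpl16, Mrpl50, Mrps2 and Mrps9. Another 24 members were above 0 under all of these, Mrpl12, Mrpl20, Mrpl23, Mrpl58, Mrps18a, Mrps24 and Mrps27 among them.

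Other members with a known role were likewise without a call. Mrpl12 had 74.3, 67.6 and 69.8 FPKM in control, 74.0, 90.3 and 81.1 FPKM in DOX and 64.6, 77.8 and 65.2 FPKM in TPTN. The groups overlapped, and its log2 change in DOX against control was 0.21 (adjusted p = 0.269, limma). Mrpl10, which anchors the stalk, gave -0.012. Mrpl58, a peptidyl-tRNA hydrolase that rescues stalled ribosomes, gave 0.27 (adjusted p = 0.163), and Mrpl45, which lies at the tunnel exit facing the inner membrane, gave 0.058. In the small subunit, Mrps12 and Mrps5, both counterparts of bacterial proteins that shape decoding, gave 0.13 and -0.042, and Mrps27, which carries a pentatricopeptide repeat domain, gave 0.18. Mrps23 gave 0.12, Mrps10 -0.038, Mrpl32 0.050 and Mrps30 0.11. Mrps36, outside the ribosome, had 31.18, 31.01 and 31.51 FPKM in control and 34.6, 36.7 and 33.4 FPKM in DOX. All its DOX libraries were above control, with a log2 change of 0.15 (adjusted p = 0.263, limma).

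In TPTN hearts against DOX hearts most values of the family were lower in TPTN as deposited, though not when scaled without mitochondrial genes and copies, and of the 78 genes Mrpl20 alone passed the threshold. By limma, 0 of the 78 were called higher (0.792% of all genes tested) and 1 was called lower (2.46%). Mrpl20 fell by 0.34 on the log2 scale (SE 0.077, adjusted p = 0.0417, limma), from 17.2 ± 1.27 to 13.4 ± 0.994 FPKM (SD, n = 3), with all TPTN libraries below all DOX libraries. This call was kept in 5 of 21 alternatives. It was lost with only the compared groups in the fit (adjusted p = 0.0684), with no filter on low values (0.179) and under all scalings and trend corrections (0.0559 to 0.0900). It was also lost without control replicate 2 (0.0511) or 3 (0.0640), DOX replicate 2 (0.130) or 3 (0.112), or TPTN replicate 1 (0.134), 2 (0.0817) or 3 (0.0752). In every alternative its log2 change was between -0.40 and -0.21.

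At an unadjusted p under 0.05, 19 members were lower (24.4%, against 12.9% of all genes) and 0 higher (against 7.78%). In 19 members all TPTN libraries lay below all DOX libraries (14.1% of all genes), and in 0 all lay above (10.4%). The log2 change was below 0 in 65 of the 78 (51.9% of all genes), and its median was -0.10, beside -0.0079 over all genes. Scaled without mitochondrial genes and copies the median was 0.017, beside 0.085 over all genes, so here too the sign turned while the members stayed below the median of all genes. Mrps24 gave -0.38 (SE 0.097, adjusted p = 0.0612, limma), Mrps18a -0.28 (0.0651), Mrpl23 -0.25 (0.0654) and Mrpl54 -0.41 (0.0886). Mrps18a spread least in TPTN, at 9.202 to 9.62 FPKM, clear of its DOX range. Mrpl12 gave -0.24, Mrps36 -0.21, Mrpl58 -0.18 and Mrps23 -0.13. Mrpl3 (0.11) and Mrps22 (0.086) lay on the other side of 0, as did Mrps2 at 0.19, which was chosen after its values were seen.

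Without DOX replicate 1 the median change in this comparison was -0.16, beside 0.011 over all genes, and 7 members were called lower (2.45% of all genes): Mrpl15, Mrpl20, Mrpl54, Mrps18a, Mrps21, Mrps24 and Mrps34. Without TPTN replicate 2 the median was -0.15, beside -0.026 over all genes, with 0 past the threshold and 25 lower at an unadjusted p under 0.05 (13.3% of all genes). The summed FPKM in TPTN was 842, 946 and 842 for the large subunit and 361, 407 and 361 for the small subunit. TPTN replicate 2 lay above DOX replicate 1 in both, so the groups overlapped. The ratios of the means, TPTN to DOX, were 0.906 and 0.904 as deposited, 0.976 and 0.961 under quantile normalization, and 0.995 and 0.992 when scaled without mitochondrial genes and copies. Both comparisons use the same 3 DOX libraries, so the opposite signs of their values are not independent of each other.

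In TPTN hearts against control hearts no member passed the threshold, and the median change lay near 0. Of the 78, 0 were called higher (0.336% of all genes tested) and 0 lower (0.384%) by limma, and at an unadjusted p under 0.05 there was 1 lower (4.12%) and 0 higher (9.02%). The groups did not overlap in 2 higher members (15.2% of all genes) and 2 lower members (6.03%). The median log2 change was -0.015, beside 0.037 over all genes, and 27 of the 78 were above 0 (62.4% of all genes). This sign turned without control replicate 1 (0.0064), without TPTN replicate 1 (0.013) and without TPTN replicate 3 (0.0045). The median was -0.046 without control replicate 2, -0.030 without control replicate 3 and -0.074 without TPTN replicate 2. The summed FPKM of the large and small subunits in TPTN was 0.983 and 0.995 times that in control. The smallest p belonged to Mrpl27, the counterpart of a bacterial protein that reaches toward the peptidyl transferase centre, named after its values were seen. It had 16.8, 15.5 and 15.9 FPKM in control, 15.5, 16.0 and 19.7 FPKM in DOX and 11.8, 15.3 and 12.6 FPKM in TPTN. Its TPTN libraries were the 3 lowest of the 9, with a log2 change against control of -0.27 (SE 0.11, adjusted p = 0.312, limma).

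**Figure D4:**
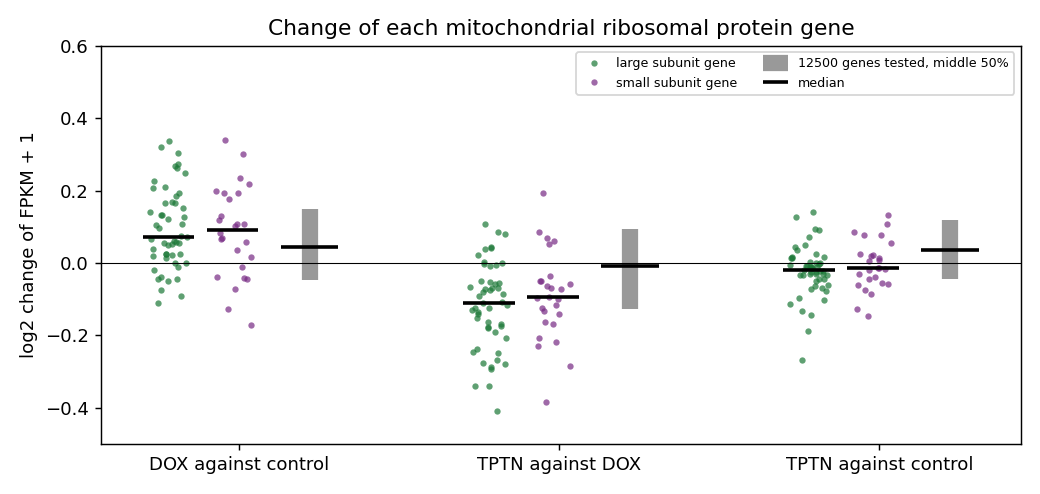
Log2 change of FPKM + 1 for each gene of the large subunit (green) and the small subunit (purple) in the 3 comparisons, with black bars at the medians and the grey box at the middle 50% of the 12500 genes tested. Medians of the family are 0.079, -0.10 and -0.015 as deposited; the first turned sign under quantile normalization, and the first and the second when scaled without mitochondrial genes and copies.

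The medians of the structural classes of the ribosome lay close together, with no test of their differences. In DOX against control the median log2 change was 0.073 for the large subunit (41 of 51 above 0) and 0.092 for the small subunit (19 of 26). For the 48 proteins with a bacterial counterpart it was 0.086, and for the 29 specific to mitochondria 0.066. Mrps18a, Mrps18b and Mrps18c, the relatives of bacterial S18, were counted among those with a bacterial counterpart. In TPTN against DOX the medians were -0.11 and -0.096 for the large and small subunits (43 of 51 and 21 of 26 below 0) and -0.10 and -0.098 for the bacterial and the mitochondria-specific class. In DOX against control the values of single genes ran from -0.17 for Mrps2 to 0.34 for Mrps24, both small subunit proteins with a bacterial counterpart. The 26 members with an ETS core in their window had a median of 0.11 in DOX against control and the 43 without it 0.061. For the longer ETS form the order turned, with 0.056 in the 12 members that held it and 0.096 in the 57 that did not. For NRF1 the medians were 0.058 with the motif (13 members) and 0.089 without it (56 members), for its shorter form 0.061 (8) and 0.096 (61), for YY1 0.13 (11) and 0.068 (58), and for CREB 0.075 (2) and 0.082 (67). These differences were not tested.

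The size of the family's value depended on how the libraries were put on a common scale. In DOX against control the median of the 78 was 0.079 as deposited, 0.023 under median ratios and -0.0085 under quantile normalization. With mitochondrial genes and copies taken out of the sum it was -0.066. The medians of all genes were 0.044, -0.0017, -0.010 and -0.071 in the same order. The median of the members minus that of all genes was thus 0.034, 0.025, 0.0018 and 0.0044. In TPTN against DOX this difference was -0.097, -0.094, -0.040 and -0.068 under the same scalings, and in TPTN against control it was -0.052, -0.064, -0.052 and -0.060. Members have short transcripts, with a median length of 852 bases against 1407 bases for all genes tested. The log2 change in DOX against control went down with transcript length across the members (Spearman's rho -0.33 over 78 genes) and across all genes (-0.20 over 12490 genes), and in TPTN against DOX it went up with length (0.39 and 0.25). These correlations are across genes that share the same libraries and are given as a description. Among the 36 members shorter than 800 bases the median in DOX against control was 0.11, beside 0.087 over the 3283 genes tested in that range. Among the 12 members of 2000 bases or more it was 0.0029, beside 0.013. With the trend on length removed from each library, the family's median was 0.017 in DOX against control and -0.061 in TPTN against DOX.

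**Figure D5:**
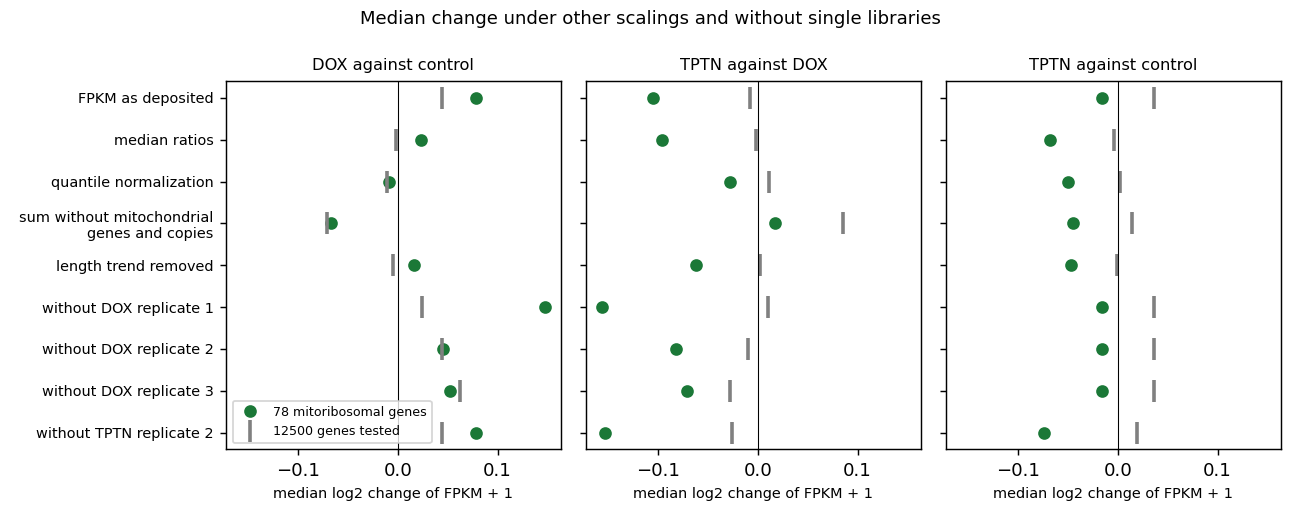
Median log2 change of the 78 mitoribosomal genes (green points) and of the 12500 genes tested (grey ticks) in the 3 comparisons, as deposited, under other scalings and without single libraries. In DOX against control the family ranges from -0.066, scaled without mitochondrial genes and copies, to 0.15, without DOX replicate 1.

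Other proteins of the mitochondrial ribosome that carry different names had no call in the fit as deposited. Of 5 (Dap3, Ptcd3, Chchd1, Aurkaip1 and Gadd45gip1), 0 passed in any comparison, and the median log2 change was 0.15 in DOX against control and -0.18 in TPTN against DOX. Aurkaip1 had 21.8, 19.5 and 22.7 FPKM in control, 23.6, 26.4 and 29.4 FPKM in DOX and 19.4, 23.3 and 21.4 FPKM in TPTN. Its DOX libraries were the 3 highest, with a log2 change of 0.30 in DOX against control (adjusted p = 0.131, limma). Ptcd3, a pentatricopeptide repeat protein of the small subunit, had 12.8, 13.4 and 13.8 FPKM in control, 11.5, 12.2 and 11.9 FPKM in DOX and 13.1, 14.1 and 12.6 FPKM in TPTN. Its DOX libraries were the 3 lowest, and its log2 change of -0.16 had an adjusted p of 0.226. Scaled without mitochondrial genes and copies, Ptcd3 passed in DOX against control (-0.31, adjusted p = 0.0379) and in TPTN against DOX (0.28, adjusted p = 0.0401). With that scaling the medians over all genes were -0.071 and 0.085 in the same order. Most calls over all genes were lower in the former and higher in the latter comparison.

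The factors that work with the ribosome showed no call as deposited among 16 translation factors, 24 assembly and RNA modification factors and 17 mitochondrial aminoacyl-tRNA synthetases in any comparison. Their median log2 changes in DOX against control were -0.046, 0.058 and 0.0076, and in TPTN against DOX 0.050, -0.013 and 0.019. Taco1, a translational activator of the mitochondrial cytochrome oxidase subunit I message, gave -0.16 in DOX against control and 0.20 in TPTN against DOX (adjusted p = 0.3004 and 0.182, limma). Scaled without mitochondrial genes and copies, Taco1 (0.32, adjusted p = 0.0453) and the translation initiation factor Mtif2 (0.32, adjusted p = 0.0499) passed in TPTN against DOX. With that scaling most calls over all genes were higher, and the median over all genes was 0.085. Mrm1, which methylates the large ribosomal RNA, had 5.72, 5.13 and 4.39 FPKM in control, 6.72, 6.67 and 6.21 FPKM in DOX and 4.82, 5.20 and 5.04 FPKM in TPTN. All its DOX libraries were above the others, with log2 changes of 0.31 and -0.32 in the same order (adjusted p = 0.0829 and 0.0686, limma). Rbfa, which helps the small subunit mature, gave 0.24 and -0.32. Lars2, the leucyl-tRNA synthetase, varied most, with 23.9, 48.1 and 27.0 FPKM in control, 61.2, 70.5 and 123 FPKM in DOX and 61.2, 29.4 and 63.4 FPKM in TPTN. Its spread within groups was wide, and its log2 change of 1.34 in DOX against control had an adjusted p of 0.173.

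Of 7 genes tested for mitochondrial transcription and ribosomal RNA, 1 was called lower in DOX against control (0.4% of all genes tested were). There were 0 calls in the other comparisons. Tfb2m, the initiation factor that opens mitochondrial promoters for the RNA polymerase, had 12.95, 13.8 and 13.6 FPKM in control, 10.1, 10.6 and 11.2 FPKM in DOX and 11.7, 12.8 and 11.1 FPKM in TPTN. All DOX libraries were below all control libraries, and it fell by 0.31 in DOX against control (SE 0.071, adjusted p = 0.0452, limma). The call was kept in 6 of 21 alternatives and lost when any 1 control or DOX library was left out, with an adjusted p of 0.0706, 0.153 and 0.126 without control replicates 1, 2 and 3 and of 0.0854, 0.125 and 0.0749 without DOX replicates 1, 2 and 3. It was also lost without TPTN replicate 1 (0.0606) or 3 (0.0578). Mterf2 gave -0.25 (adjusted p = 0.140). It passed with the length trend removed (-0.37, adjusted p = 0.0463) and when scaled without mitochondrial genes and copies (-0.40, adjusted p = 0.0360). With the latter scaling most calls over all genes were lower, and the median over all genes was -0.071. The ribosomal RNAs themselves were listed at 1950 to 2258 FPKM for mt-Rnr1 and 2757 to 3712 FPKM for mt-Rnr2 over the 9 libraries. The libraries were selected on oligo(dT), per the labels' protocols, so these values depend on the short tails of mitochondrial ribosomal RNA and are not a level of ribosomes.

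Many of these genes lie close to others. By GENCODE M21, 19 of the 78 (24.4%) had a protein-coding neighbour on the opposite strand whose start lay within 1000 bases head to head, against 11.2% of 10881 protein-coding genes tested. Mrps12 and Sars2, the mitochondrial seryl-tRNA synthetase gene, start 172 bases apart and had mean levels of 14.7 and 2.02 FPKM. In DOX against control their log2 changes were 0.13 and 0.0076. Mrpl49 and Fau, which encodes a protein of the cytosolic ribosome, start 59 bases apart and are named after their values were seen. Fau rose by 0.44 in DOX against control (adjusted p = 0.0150, limma) and fell by 0.50 in TPTN against DOX (adjusted p = 0.00850), whereas Mrpl49 gave 0.19 and -0.067 with no call. Mrpl10 and Lrrc46, 153 bases apart, had mean levels of 19.5 and 0.126 FPKM. Another listed gene overlapped 38 of the 78, on the opposite strand for 32 and on the same strand for 10. The libraries mark strand, per the labels' protocols, but nothing states that the assembly used it, so values of overlapping genes are uncertain. Among these are Mrps24 with Urgcp on the same strand (8.52 FPKM), Mrpl36 with Ndufs6 on the opposite strand (185 FPKM) and Mrpl46 with Mrps11, 2 members on opposite strands.

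The authors' deposited table gives each gene a p-value and a q-value from a comparison that its header does not name. Of the 78 members, 16 have p under 0.05 (20.5%, against 9.89% of all 29237 genes), and 6 have q under 0.05 (7.69%, against 3.58% of all genes) in the authors' deposited table. In the authors' deposited table these 6 are Mrps24 (q = 0.00647), Mrpl20 (0.0156), Mrpl15 (0.0295), Mrpl23 (0.0334), Mrps18a (0.0375) and Mrpl54 (0.0426). The 29237 genes were not filtered for expression, whereas all members passed the expression minimum, so these shares are not matched for expression. The authors' values rest on the same libraries and are no separate evidence.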

How the data were processed

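Heart RNA of 9 libraries was sequenced as paired reads after oligo(dT) selection, per the labels' protocols. The authors' deposited table holds FPKM values of 29237 genes, all 9 FPKM columns of which were mapped to samples by name, and a p-value and a q-value per gene. The submitters' processing notes name cutadapt 1.9, HISAT2 2.0.4, StringTie 1.3.4d, DESeq2, edgeR and GRCm38 without roles. FPKM divides by length and by the library total, so a change in abundant transcripts shifts all others. The worth of 1 read pair was sought from low values in 15203 genes with 1 transcript, and would put depth near 18.4 to 24.3 M read pairs. Whole multiples of it within 0.05 made up 9.23 to 11.1% of low values, about the share that unrelated values would give. The unit, and with it the depth, is therefore not established, and no count test was run.

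The 12500 genes averaging 0.5 FPKM or more were tested on the log2(FPKM + 1) scale, in a limma 3.58.1 model of 3 groups (6 residual degrees of freedom, mean-variance trend, robust empirical Bayes, two-sided, Benjamini-Hochberg adjusted p under 0.05; R 4.3.3). A change on this scale understates that of low genes. Members and lists were chosen with earlier results of these data known. Named genes are members past the threshold, a set with a known role, the highest and lowest member of each subunit, and up to 4 genes with the smallest p of each list of related genes; others are said to be chosen after their values were seen. Alternatives were the fit, filters, pseudocount (0.1), scalings, length trend and each library left out. A length and GC trend, and leaving out control 3 and TPTN 1 together, were added after seeing the data. Positions are those of GENCODE M21 (GRCm38). Tables and plots used Python 3.11.15, pandas 2.3.3 and matplotlib 3.10.9.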

Additional observations from a re-analysis of the deposited data

How the results depend on the processing

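Depth is not known, and a group holds 3 libraries. Of 3906 alternative values of single named genes, 3598 kept their sign and side of the threshold, 31 lost and 13 gained a call, and 264 changed sign (1 of them to 0) without a call in either fit (47 of them scaled without mitochondrial genes and copies). Of values with a call, 0 changed sign. The cause of the changes below was not tested. Dropping the filter tests more genes and dropping a library leaves fewer libraries, but the part of either was not tested.

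For all genes, the 329, 407 and 90 calls (DOX against control, TPTN against DOX, TPTN against control) became 2, 2 and 6 with no filter on low values. With only the compared groups the first was 176. Without control 3 and TPTN 1 together they were 5, 6 and 0. In DOX against control they were 155 under median ratios, 143 under quantile normalization, 148 with the length trend and 100 with the length and GC trend removed. Calls were higher for 84.8% as deposited, but for 61.3%, 53.1%, 63.5% and 64.0% under these settings and for 22.6% when scaled without mitochondrial genes and copies. In TPTN against DOX the share of higher calls was 24.3% as deposited and 35.7%, 51.5%, 35.5%, 37.3% and 80.8% in the same order, the last with 671 calls. In TPTN against control it was 46.7% as deposited and 36.6% under median ratios. Leaving out single libraries gave 2 to 314, 45 to 468 and 21 to 148 calls.

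For the members, calls were 1 in DOX against control and 2 in TPTN against DOX with a minimum mean of 1 FPKM. In the latter they were 0 with only the compared groups, with no filter, under median ratios, with quantile normalization, with mitochondrial genes and copies out of the sum, with the length trend, with the length and GC trend removed, and without control 3 and TPTN 1 together. Leaving out single libraries gave 0 to 3, 0 to 7 and 0 to 0 member calls. The median log2 change in DOX against control was 0.023 under median ratios, 0.017 with the length trend and 0.0071 with the length and GC trend removed. It reversed to -0.0085 under quantile normalization and to -0.066 with mitochondrial genes and copies out of the sum. The latter took the all-gene median from 0.044 to -0.071, and it also reversed the summed ratios to 0.967 and 0.980. In TPTN against DOX the median was -0.028 under quantile normalization, -0.053 with the length and GC trend removed and 0.017, reversed, without mitochondrial genes and copies. In TPTN against control it was -0.067 under median ratios. Leaving out single libraries gave medians of 0.046 to 0.15, -0.16 to -0.071 and -0.074 to 0.013.

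Replicate numbers did not pair the samples: 0 of 9 same-numbered pairs had a correlation of deviations over 0.1 (range -0.26 to 0.023). With the replicate number as a block, 170, 159 and 62 genes were called, and 0 members in each comparison (adjusted p = 0.0788 for Mrpl20 in TPTN against DOX).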
